A study of Mustela putorius furo and Mus musculus with 4 samples.

Results

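The 9 genes described here encode transcription factors used to tell the layers of the cerebral cortex apart: Bcl11b, Fezf2, Tbr1 and Sox5, linked mainly to the deep layers, Cux1, Cux2, Pou3f2 and Pou3f3, linked mainly to the upper layers, and Rorb, linked to layer 4. They were chosen by symbol, and each was found as 1 row among 17170 genes of the mouse table and, in upper case, as 1 row among 22008 genes of the ferret table. The samples were mouse cortex at embryonic day 18 (E18) and ferret cortex at E39, dissociated to single cells and sequenced on the 10x Chromium platform, which counts molecules (UMIs) near the 3′ end of each mRNA. For each gene the study's tables were asked how many cells held at least 1 UMI, at what level, together with which of the other 8 genes, and whether the values differed between a Smo-cKO and a control cortex.

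The mouse control was labelled as a wild type littermate on the CD1 strain and is named Smo F/F in the study's methods, and the Smo-cKO littermate carried hGFAP-Cre with Smo F/F. The hGFAP promoter drives Cre in radial glia of the dorsal cortex, so cells born from them inherit the deletion, whereas microglia and vessel cells arise elsewhere. Most cortical interneurons also arise elsewhere. The study reports later Cre activity in radial glia of the lateral ganglionic eminence, and cortical radial glia as a source of some olfactory bulb interneurons. Some interneuron-like cells may therefore carry the deletion. Both mouse cortices had received a CellTrace dye (Flash-Tag in the labels) in the lateral ventricle the day before harvest, and cells were sorted before loading. That step favours cells that lay at the ventricle on the day before harvest and their offspring. Smo is the transducer of SHH signaling. The barcodes of the mouse table carry a suffix and no sample name, and the suffix with 10524 barcodes was taken as control and that with 7596 as Smo-cKO from the cell numbers of the study, so every genotype direction rests on this. The ferret cells came from wild type cortex of 1 embryo, and 2 sets of barcodes in the table could not be tied to either of the labelled samples. They are called set 1 and set 2, and since they came from 1 animal they are not replicates.

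In the developing cortex radial glia (RG) divide at the ventricle, intermediate progenitors (IPC) arise from them, and both give rise to pyramidal neurons (PyN), the excitatory projection neurons. Deep-layer neurons are born first and upper-layer neurons later. The layer regulators act partly against each other: in mature deep-layer neurons Fezf2 acts upstream of Bcl11b (also called Ctip2) in neurons that project below the cortex, Tbr1 limits Fezf2 in corticothalamic neurons, and Sox5 sets the timing of deep-layer identity. Cux1 and Cux2 are homeodomain proteins of upper-layer neurons that shape dendrites. Pou3f2 (Brn2) and Pou3f3 (Brn1) are POU-domain paralogs needed for the birth and migration of upper-layer neurons, and Rorb is a nuclear receptor of layer 4 neurons.

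After filtering, 10498 control and 7209 Smo-cKO cells remained, with medians of 4034 and 4836 and lowest values of 2454 and 1068 UMIs per cell, and 10185 and 13052 ferret cells remained in set 1 and set 2, with medians of 2556 and 3563 UMIs. The 2 mouse libraries shared 28 cell barcodes and the 2 ferret sets shared 38. Cells were grouped without use of the 9 genes, and groups were named from marker genes with the ending "-like". Control and Smo-cKO held 975 and 841 RG-like, 2046 and 1257 IPC-like, and 3689 and 3111 PyN-like cells. Ferret set 1 and set 2 held 412 and 518 RG-like, 878 and 993 IPC-like, and 7630 and 9109 PyN-like cells. The RG-like class of the mouse included 83 cells led by stress genes (Cxcl10, Chac1, Cdkn1a), and 1448 control and 721 Smo-cKO cells stayed unnamed. The targeted gene Smo gave 78 UMIs in control and 3 in Smo-cKO RG-like cells, and its pathway target Gli1 gave 33 and 0. There was 1 library per genotype, so no difference has a replicate check, no p-value is given, and all intervals are exact 95% intervals that cover counting error only.

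There are 2 pairs of close paralogs among the 9 genes, and short reads could in principle be shared between them. In the mouse transcripts (GRCm38, GENCODE vM21), Pou3f2 and Pou3f3 were identical at 79.9% of 1267 aligned coding bases and Cux1 and Cux2 at 75.0% of 3889. The longest identical run was 23 bases in each pair and no run of 30 bases was shared, so the paralogs can be told apart by a read of that length. The most alike stretch of 90 coding bases of each pair is shown 5′ to 3′ because it marks how near the paralogs come, with the 10 bases that differ in capitals.
Pou3f2: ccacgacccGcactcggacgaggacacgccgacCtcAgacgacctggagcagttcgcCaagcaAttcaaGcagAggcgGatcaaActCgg
Pou3f3: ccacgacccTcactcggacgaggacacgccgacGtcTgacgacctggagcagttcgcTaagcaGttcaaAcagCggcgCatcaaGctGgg
Cux1: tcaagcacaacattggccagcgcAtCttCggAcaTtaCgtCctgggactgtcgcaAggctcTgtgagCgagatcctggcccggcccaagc
Cux2: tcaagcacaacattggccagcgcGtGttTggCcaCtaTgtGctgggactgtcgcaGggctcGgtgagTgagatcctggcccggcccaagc
The Pou3f2 stretch lies at chr4:22487272-22487361 on the minus strand and the Pou3f3 stretch at chr1:42698057-42698146 on the plus strand, each in the single exon of its gene. The Cux1 stretch lies at chr5:136312754-136312843 in exon 15 of 24 and the Cux2 stretch at chr5:121873768-121873857 in exon 16 of 23, both on the minus strand. In the same annotation antisense genes lie across Sox5, Cux1 and Cux2, and other genes overlap Pou3f3 (AC122898.1), Sox5 (Gm44068, Sox5it) and Cux1 (A430110C17Rik, Mir721, Gm38082) on their own strand, so the counts of these members are uncertain where reads fall in both. Because UMIs were counted near the 3′ end and were not scaled to length, values are compared within a gene and not between genes.

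Bcl11b, the zinc finger factor of neurons that project below the cortex, was found in few progenitors and in more neurons in the mouse. It had a UMI in 4.51% of control and 4.40% of Smo-cKO RG-like cells, in 5.57% and 8.27% of IPC-like cells, and in 15.3% (14.1 to 16.5) and 25.5% (24.0 to 27.1) of PyN-like cells. Its highest level lay outside this lineage, in interneuron-like cells, at 44.2% and 46.4% of cells. Microglia-like cells, taken as background for the members other than Cux1, held it in 5.05% and 0.565%. In CPM the interval of RG-like cells overlapped theirs in control and lay above it in Smo-cKO, and PyN-like shares were above theirs in both libraries. In the ferret BCL11B followed the same order, with 3.42% and 8.46% of IPC-like and 6.84% and 16.7% of PyN-like cells in set 1 and set 2, and 24.9% and 35.98% of interneuron-like cells. The ferret microglia-like cells held it in 3.49% and 7.14%, near the IPC-like shares.

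Fezf2, a zinc finger factor expressed by early radial glia and by deep-layer neurons that project below the cortex, was highest in progenitors among the named mouse classes. Its level in control was 54.8 CPM (UMIs scaled to 1000000 in the class; interval 48.6 to 61.6) in RG-like, 46.1 in IPC-like and 35.2 (32.1 to 38.6) in PyN-like cells. The corresponding shares of cells with a UMI were 24.4%, 17.2% and 11.1%, against 4.04% in microglia-like cells of median depth 7944 UMIs. The intervals of cycling progenitor-like cells overlapped those of RG-like and IPC-like cells, whereas PyN-like cells lay below all 3. An unnamed group led by 1500015O10Rik and Igfbp5, which held 15 RG markers, was higher than these classes, at 85.9 CPM in control. Ferret FEZF2 was held by 14.1% and 19.7% of RG-like cells. It was at background in IPC-like cells, at 1.03% and 2.32%, and present again in PyN-like cells, at 5.02% and 14.9%. Microglia-like cells of the ferret held it in 1.16% and 5.71%. These shares lay below those of RG-like cells, but in CPM the RG-like and microglia-like intervals overlapped in set 2.

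Tbr1, the T-box factor of preplate, subplate and layer 6 neurons, was higher at each step from RG-like to IPC-like to PyN-like cells in both mouse libraries. It was detected in 11.5% and 8.68% of RG-like, 28.1% and 42.0% of IPC-like, and 45.4% (43.8 to 47.1) and 52.6% (50.8 to 54.3) of PyN-like cells. All 19 control Cajal-Retzius-like cells, the early neurons of layer 1, held it too, as did 3 of 4 in Smo-cKO. Microglia-like cells held it in 9.09% and 2.26% and were deeper, and in CPM control RG-like cells lay above them, at 31.6 (26.9 to 36.8) against 15.1 (8.43 to 24.8). In control, 22.1% of interneuron-like cells held Tbr1 and in Smo-cKO 1.71%. Ferret TBR1 was detected in 7.50% and 12.2% of PyN-like and 5.47% and 6.85% of IPC-like cells, and in 18.2% and 16.2% of Cajal-Retzius-like cells. No ferret microglia-like cell held it, which allows shares of up to 3.49% of 86 and 4.29% of 70 cells. The tables of the species differ in depth and annotation, so shares are read within a species.

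Sox5, an SRY-box factor that restrains the timing of deep-layer programs, was spread over the whole lineage. In the mouse it was detected in 20.4% and 30.2% of RG-like, 27.8% and 39.1% of IPC-like and 30.1% and 36.2% of PyN-like cells, against 7.07% and 1.69% of microglia-like cells. In the ferret it was detected in 65.5% and 80.7% of RG-like, 69.4% and 89.0% of IPC-like and 65.5% and 78.5% of PyN-like cells. Its ferret level was highest in IPC-like cells in both sets (707 and 1012 CPM against 555 and 676 in PyN-like cells). Background was high as well, at 27.9% and 32.9% of ferret microglia-like cells.

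Cux1 was spread over all classes in both species. Control PyN-like cells held it in 41.4% and RG-like cells in 45.8%, but microglia-like cells held it in 53.5%, and in the ferret microglia-like cells had the highest level of all classes (174 and 216 CPM, against 92.4 and 68.5 in PyN-like cells). Microglia-like cells of the mouse were deeper, so the level is the fairer comparison there, and it was lower in them, at 88.4 CPM (70.9 to 109) against 174 (167 to 181) in control PyN-like cells. Cux1 is known to be expressed in many tissues.

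Cux2, in contrast, was a neuronal gene in both species. It was detected in 8.62% and 5.95% of mouse RG-like, 9.73% and 10.9% of IPC-like and 25.6% (24.2 to 27.1) and 27.9% (26.3 to 29.5) of PyN-like cells, against 4.04% and 1.69% of microglia-like cells. Ferret CUX2 was detected in 12.6% and 10.0% of RG-like, 27.2% and 41.8% of IPC-like and 43.0% and 48.1% of PyN-like cells. Ferret microglia-like cells held it in 10.5% and 20.0%, so the ferret RG-like share was near background in set 1 and below it in set 2. Ferret IPC-like cells held it more often than RG-like cells, while the mouse IPC-like and RG-like levels overlapped in control (25.1 and 20.5 CPM) and did not in Smo-cKO (22.1 and 8.86 CPM). Interneuron-like cells also held Cux2, in 35.5% and 28.0% of mouse and 21.2% and 31.4% of ferret cells.

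Within interneuron-like cells Bcl11b and Cux2 were unevenly spread. Of the mouse interneuron-like groups, the one led by Maf, Lhx6 and Sst, genes of interneurons from the medial ganglionic eminence, held Bcl11b in 56.1% and Cux2 in 63.1% of cells, and the one led by Dlx6os1 and Dlx1 held them in 37.8% and 6.74%. The ferret gave the same order, with 39.9% and 49.2% in the group led by NXPH1 and SST and 28.9% and 9.48% in the group led by ADARB2.

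Pou3f2 and Pou3f3 were detected in most cells of the mouse lineage. Pou3f2 was found in 70.9% and 76.6% of RG-like, 87.1% and 89.98% of IPC-like and 90.9% and 92.0% of PyN-like cells, and its control level was higher at each step, at 391, 701 and 946 CPM, with no overlap of intervals. Pou3f3 was found in 75.0% and 79.8%, 86.0% and 90.1%, and 88.5% and 92.4% of the same classes, at 388, 582 and 803 CPM in control. Background was not small: control microglia-like cells held them in 26.3% and 24.2%. In the ferret neither gene was highest in neurons. POU3F3 was found in 206 of 412 set 1 and 65.3% of set 2 RG-like cells and in 46.5% and 64.7% of PyN-like cells, and POU3F2 was highest in IPC-like cells in both sets (208 and 317 CPM, against 173 and 203 in PyN-like cells).

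Rorb was found in different classes in the 2 species. In the mouse it was a progenitor gene, in 42.6% and 55.4% of RG-like, 19.3% and 23.2% of IPC-like and 12.6% and 15.1% of PyN-like cells, and its control levels were 137 (127 to 147), 50.2 and 41.4 CPM. In the ferret it was a neuronal gene, in 9.71% and 11.6% of RG-like, 6.83% and 10.5% of IPC-like and 21.0% and 26.6% of PyN-like cells, at 133 and 152 CPM in the latter. Microglia-like cells held it in 3.03% and 2.82% in the mouse and 5.81% and 1.43% in the ferret. The species differ in stage, labelling and sorting as well, and these cannot be told apart here.

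**Figure D1:**
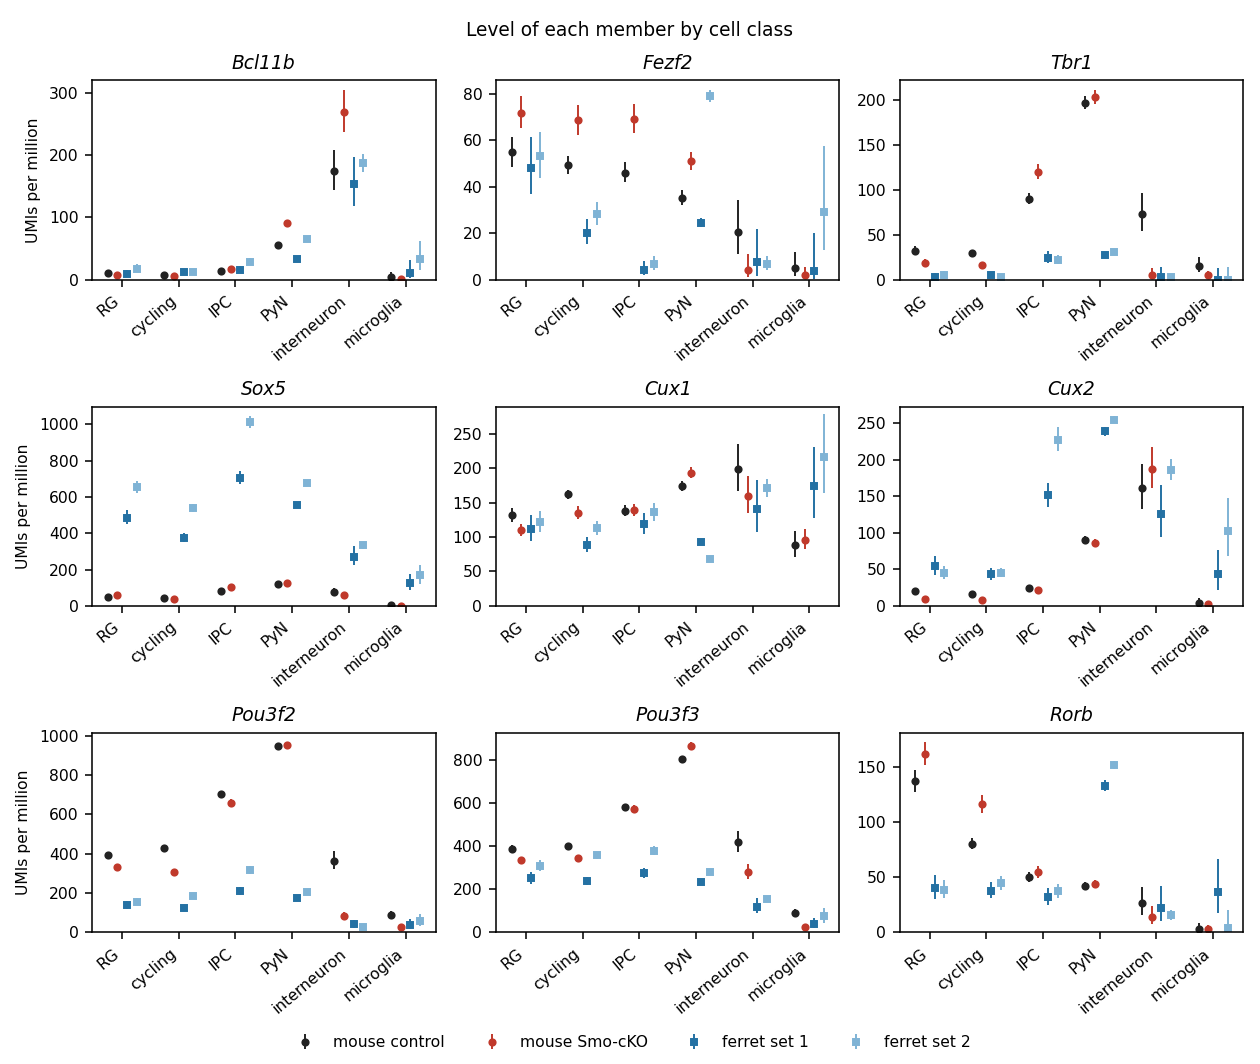
Level of each of the 9 genes (UMIs scaled to 1000000 in the class, linear axis from 0, a separate axis for each gene) in RG-like, cycling progenitor-like, IPC-like, PyN-like, interneuron-like and microglia-like cells of the 2 mouse libraries (circles) and the 2 ferret sets (squares), with bars for exact 95% Poisson intervals. Mouse Rorb falls from 137 CPM in RG-like to 41.4 CPM in PyN-like control cells while Tbr1 is higher in PyN-like cells, and ferret CUX1 is highest in microglia-like cells (174 and 216 CPM).

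The genes whose levels most resembled a member across the 12 mouse and 16 ferret groups of the lineage are given as a description, by Pearson correlation of log2(CPM + 10), since such groups share depth and library. In the mouse they were Tmem35 for Bcl11b (r = 0.99), Mzt2 for Fezf2 (0.94), Kif21b for Tbr1 (0.98), Pafah1b3 for Cux2 (0.99), Csnk1e for Pou3f2 (0.99), Zfp90 for Pou3f3 (0.99) and St6galnac5 for Rorb (0.98). Enc1 was among the 3 nearest to both Pou3f2 and Pou3f3. In the ferret RIOX2 was nearest to FEZF2 (0.96), EMX2 to CUX1 (0.90), VWCE to CUX2 (0.92) and CAMK4 was among the 3 nearest to RORB (0.90).

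The mouse PyN-like cells gave little separation of the 9 genes. They fell into 4 groups, led by Pcp4 and Ulk4 (2878 cells), Plxna4 and Nrp1 (2748), Zic1 and Gm28050 (604) and Stmn2 and Mef2c (570). Between the highest and the lowest of these groups Cux2 differed by 2.17-fold and Bcl11b by 2.00-fold, and the other members by less. In control Bcl11b was held by 10.7%, 20.3%, 20.0% and 10.5% of cells of the 4 groups, and Cux2 by 22.5%, 30.3%, 15.7% and 31.0%. Both genes were held more often in the Plxna4 than in the Pcp4 group, whereas the Zic1 group was high for Bcl11b and lowest for Cux2. The Stmn2 and Mef2c group was near the Pcp4 group for Bcl11b and near the Plxna4 group for Cux2. In level, control Cux2 was higher in the Plxna4 group (115 CPM) than in the deeper Stmn2 and Mef2c group (90.1 CPM). In Smo-cKO the Stmn2 and Mef2c group was instead the highest for Bcl11b, at 133 CPM.

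The ferret PyN-like cells separated them far more, over 11 groups. FEZF2 spanned 59.6-fold between groups (5.26 to 313 CPM), BCL11B 40.5-fold (6.08 to 246), CUX2 25.7-fold (18.8 to 483) and RORB 24.8-fold (19.1 to 474). SOX5 spanned 10.8-fold, POU3F2 7.03-fold, CUX1 5.64-fold, POU3F3 3.77-fold and TBR1 3.06-fold. The low end of SOX5 lay in a group of 125 cells with a median of 1705 UMIs. The groups were built from other genes of the same cells, so these spans describe the groups and are not tests. Mouse PyN-like cells fell into only 4 groups, and a span over more groups tends to be wider. The mouse cells were also sorted after dye labelling, and the stages differ, so the spans of the species are not a like-for-like comparison.

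One ferret group, led by RSPO3, CNTN3 and FEZF2 itself (694 cells), combined deep-layer genes with RORB. It held FEZF2 in 60.9% and 90.1%, BCL11B in 68.5% and 84.6% and RORB in 53.8% and 70.4% of set 1 and set 2 cells, but CUX2 in 13.4% and 7.46%. This was the deepest PyN-like group, at a median of 7936 UMIs, which raises shares. In level RORB stood at 223 CPM there, against 474 and 395 CPM in the groups led by PENK and by CDH8. A group led by NTS, ZFPM2, CDH18 and TLE4 (742 cells), the last a layer 6 gene, had the highest summed level of other deep-layer genes, at 625 CPM over 10 genes. There FEZF2 was held by 35.0% and 55.4%, BCL11B by 27.3% and 54.5% and SOX5 by 86.3% and 97.7% of cells, and CUX2 by 13.7% and 11.1%. The group led by ADRA1A and PDE1A (566 cells) was like it, with FEZF2 in 36.5% and 43.9% and CUX2 in 11.1% and 12.9%.

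At the other end, the groups led by UNC5D (3254 cells), by GRIK1 and NRP1 (3175) and by PRSS12 and BCL6 (2568) held CUX2 in 47.7% to 73.6% and FEZF2 in 0.782% to 3.90% of cells of a set. The UNC5D group, whose leading gene marks newly born upper-layer neurons, nevertheless held BCL11B in 6.47% and 17.5%. RORB was concentrated in the group led by PENK and INHBA (60.7% and 78.3%) and in the one led by CDH8 and NRGN (60.6% and 73.7%), and low in the UNC5D group (4.62% and 4.60%). In the PENK group CUX2 was also held by 42.8% and 54.8%, in the CDH8 group by 19.7% and 18.6%. Over the 11 groups the correlation with the summed deep-layer list was 0.86 for BCL11B, 0.77 for FEZF2, 0.64 for SOX5 and 0.44 for TBR1. It was -0.47 for CUX2, -0.55 for POU3F2, -0.45 for POU3F3, -0.26 for CUX1 and -0.01 for RORB. With a summed list of upper-layer genes, TBR1 (0.71) and SOX5 (0.70) lay above CUX1 (0.47) and CUX2 (0.40). That list stood at 1835 and 1946 CPM in the NTS and ADRA1A groups. In the UNC5D, GRIK1 and PRSS12 groups it stood at 2618, 2414 and 1827 CPM. These values are given as a description.

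**Figure D2:**
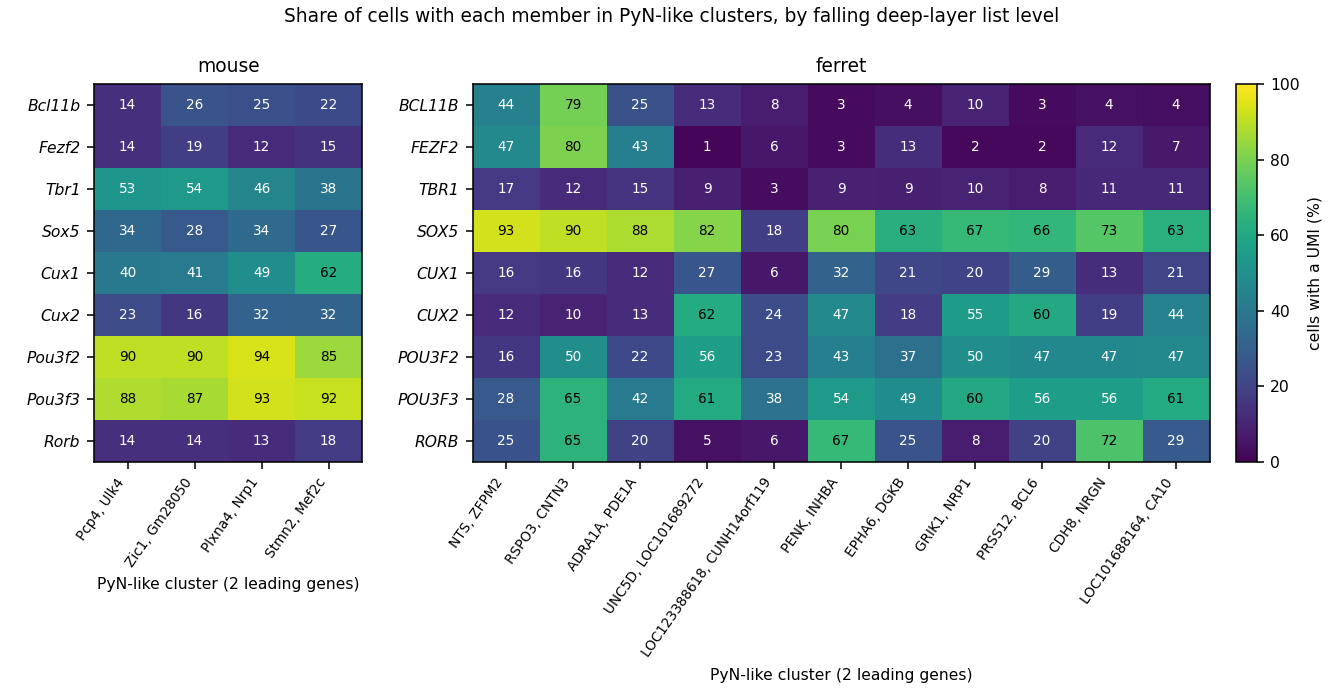
Share of cells with at least 1 UMI (percent, colour and printed value) of each of the 9 genes in every PyN-like group of the mouse (4 groups, both libraries together) and the ferret (11 groups, both sets together), with groups named by 2 leading genes and ordered from high to low summed level of the deep-layer list. Ferret FEZF2 and BCL11B are high in the groups led by RSPO3, NTS and ADRA1A, where CUX2 is low, and RORB is high in the groups led by PENK, CDH8 and RSPO3.

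The ferret sets did not hold these groups in equal parts. The CDH8 and ADRA1A groups held 71 and 63 cells of set 1 but 532 and 503 of set 2, and the PRSS12 group 1747 and 821. Summed over PyN-like cells, FEZF2 was 3.23-fold (2.95 to 3.54) and BCL11B 1.98-fold (1.82 to 2.15) higher in set 2, and the other 7 genes differed by 0.741- to 1.22-fold. Past 1.5-fold lay 2 of 9 members, beside 18.8% of all 14156 genes, and for both genes the ratio between barcode sets of 1 embryo was larger than the mouse genotype ratio over PyN-like cells given below.

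Co-detection asked whether cells with 1 member held another more or less often than the shares of both would give. The number expected was computed within 10 equal bins of cells by total UMIs, so that deep cells, which hold more of every gene, did not raise it. In control mouse PyN-like cells none of the 36 pairs lay at 0.8 times the expected number or less, or at the inverse of that limit or more, and the median was 1.01. The highest was Bcl11b with Cux2, at 184 cells against 151 expected (1.22, interval 1.05 to 1.41), and the lowest Fezf2 with Cux2, at 91 against 110 (0.83, 0.67 to 1.02). Bcl11b and Fezf2 were found together in 60 cells against 66.7 expected (0.90, 0.69 to 1.16). The genes of one deep-layer pathway were thus not seen together beyond their shares in these mouse neurons. The sorting favours cells that lay at the ventricle on the day before harvest. How many deep-layer neurons were among these cells was not tested.

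Smo-cKO PyN-like cells gave the same picture, with all 36 pairs between 0.92 and 1.13 and none past a limit. Bcl11b with Fezf2 came to 139 cells against 143 expected (0.97, 0.81 to 1.14) and Bcl11b with Cux2 to 248 against 234 (1.06, 0.93 to 1.20). Pairs with Pou3f2 or Pou3f3, which about 9 in 10 cells hold, cannot go far above 1.

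In ferret PyN-like cells, which differ from the mouse cells in stage, labelling and sorting, 1 pair lay above and 4 lay below these limits. BCL11B and FEZF2 were found together in 781 cells against 364 expected, 2.15 times (2.00 to 2.30), and 38.3% of cells with BCL11B held FEZF2 against 6.54% of cells without it. FEZF2 and CUX2 were found together in 283 cells against 723 expected, 0.39 times (0.35 to 0.44). FEZF2 with CUX1 came to 0.66 times, FEZF2 with POU3F2 to 0.74 and BCL11B with CUX2 to 0.74. Each of these 5 lay on the same side in set 1 and in set 2, with BCL11B and FEZF2 at 3.29 and 1.98 and FEZF2 and CUX2 at 0.48 and 0.37. When the number expected was computed within each group of PyN-like cells, BCL11B with FEZF2 came to 1.05, BCL11B with CUX2 to 0.96 and FEZF2 with CUX2 to 0.76, the 1 pair still past a limit. Taken set by set, 0 pairs lay past the lower limit within groups in set 1 and 1 in set 2.

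No pair with RORB lay past a limit in both ferret sets together. RORB was near the expected number with CUX2 and with SOX5, which most PyN-like cells hold and which leaves little room above 1. CUX2 with RORB came to 0.98 times in set 1 and 0.95 in set 2, and SOX5 with RORB to 1.02 and 1.01. CUX1 with CUX2 came to 1.23 (1.18 to 1.28), the second highest pair of the ferret, and 1.08 within groups.

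**Figure D3:**
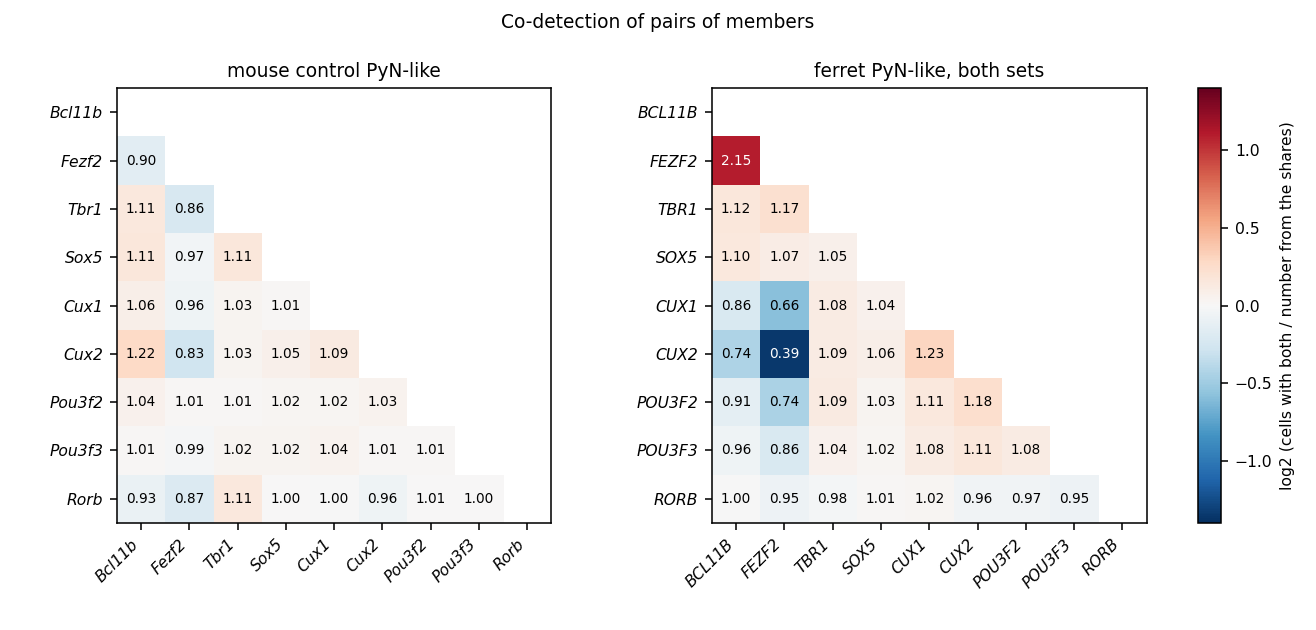
Cells with both genes over the number expected from the shares of each within 10 bins of total UMIs (printed value, with its log2 as colour), for the 36 pairs in PyN-like cells of mouse control and of both ferret sets together. Mouse control values stay between 0.83 and 1.22, and the ferret departs from 1 most for BCL11B with FEZF2 (2.15) and FEZF2 with CUX2 (0.39).

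In progenitors the expected numbers were small. In control RG-like cells 5 of 36 pairs lay past the upper limit, the highest being Bcl11b with Cux2, at 14 cells against 7.90 (1.77, 0.97 to 2.97). In Smo-cKO RG-like cells Bcl11b with Tbr1 reached 2.38 (1.41 to 3.76), at 18 cells against 7.56, and in IPC-like cells the same pair came to 1.26 in control and 1.38 in Smo-cKO. Tbr1 with Cux2 came to 1.31 in control IPC-like cells and 1.33 in the ferret IPC-like cells. These are pairs of genes that are higher in neurons, and neuronal markers were present in RG-like cells, at a summed 1252 and 998 CPM over 19 PyN markers in control and Smo-cKO. Their part in these pairs was not tested.

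The number of members found in a cell was counted without regard to layer. Control PyN-like cells held a mean of 3.61 of the 9 genes and Smo-cKO cells 4.09, and at an equal depth of 2000 UMIs the means were 2.75 and 2.89. Ferret cells held 2.55 in set 1 and 3.38 in set 2, and 2.01 and 2.33 at equal depth. At least 5 members were found in 24.4% of control, 37.7% of Smo-cKO, 9.32% of set 1 and 22.3% of set 2 cells, and none in 0.461%, 0.354%, 6.12% and 2.34%. The means at equal depth leave out shallower cells and rest on 3689 control, 3050 Smo-cKO, 5514 set 1 and 8007 set 2 cells.

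**Figure D4:**
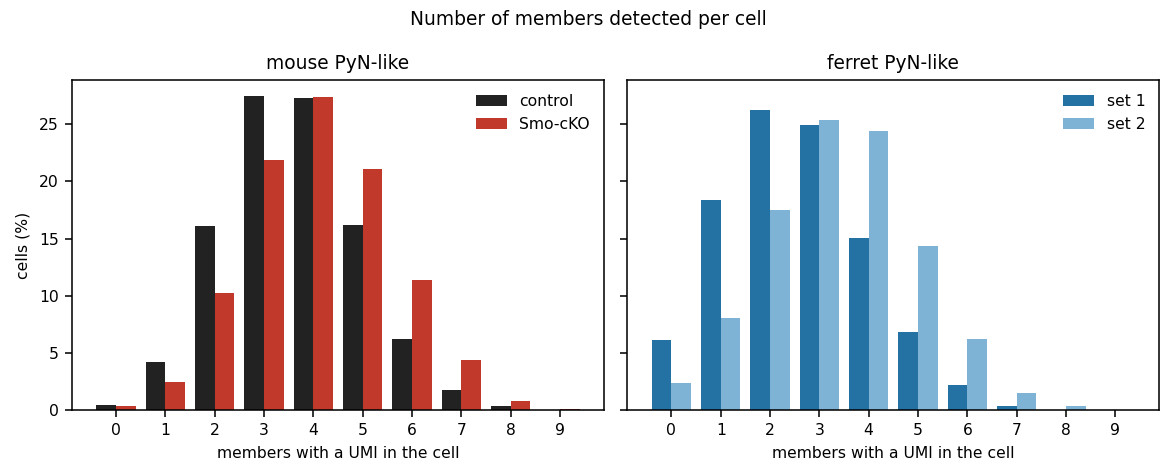
Share of PyN-like cells (percent) by the number of the 9 genes with at least 1 UMI, in each library. The median is 4 members per cell in control and in Smo-cKO, and 37.7% of Smo-cKO and 24.4% of control cells hold 5 or more.

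Between the genotypes, Bcl11b was the member with the largest difference in PyN-like cells. It stood at 54.95 CPM (51.0 to 59.1; 724 UMIs) in control and 90.3 CPM (85.2 to 95.6; 1181 UMIs) in Smo-cKO, a ratio of 1.64 (1.496 to 1.80). It was the 1 of 9 members past a ratio of 1.5 either way, beside 5.77% of 10627 genes tested (3.93% higher and 1.83% lower in Smo-cKO). Fezf2 was next, at 35.2 and 51.1 CPM (1.45, 1.29 to 1.64). The other 7 lay between 0.943 for Cux2 (0.869 to 1.02) and 1.11 for Cux1 (1.05 to 1.18).

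The Bcl11b ratio was not even over the groups of PyN-like cells. It was 1.49 in the Pcp4 group, 1.36 in the Plxna4 group, 1.78 in the Zic1 group and 3.59 (2.63 to 4.99) in the Stmn2 and Mef2c group, and that of Fezf2 was 1.35, 1.605, 1.005 and 2.60. Without the Stmn2 and Mef2c group the Bcl11b ratio was 1.48 and no member was past 1.5. That group held 294 control and 276 Smo-cKO cells, and the 15 interneuron markers summed to 228 CPM in its control and 18.6 CPM in its Smo-cKO cells, with 0 and 1 cells holding 2 or more of them. The part of this difference in the ratio was not tested. Leaving out the PyN-like cells that held 2 or more interneuron markers, 4 in control and 6 in Smo-cKO, gave 1.64 again. So few cells could not move the ratio, and none was a control cell of the Stmn2 and Mef2c group, so this does not bear on the question.

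In IPC-like cells 1 of 9 members, Fezf2, was past 1.5-fold. Fezf2 stood at 46.1 and 69.4 CPM (1.503, 1.32 to 1.72), and below that limit Tbr1 stood at 89.6 and 120 CPM (1.34, 1.21 to 1.47) and Sox5 at 82.0 and 107 CPM (1.301, 1.17 to 1.44). Bcl11b had a ratio of 1.247 (0.967 to 1.61), and the 5 others lay between 0.881 and 1.09. Fezf2 passed by a narrow margin, beside 8.14% of 10124 genes (5.78% higher, 2.36% lower), and at 2000 UMIs per cell its ratio was 1.44. Summed PyN markers were alike in the IPC-like cells of the libraries, at 2458 and 2599 CPM. The IPC-like group led by Kif26b held 58.6% of control and 50.9% of Smo-cKO IPC-like cells, and the rest lay in a group led by Neurog2. Within these groups the Tbr1 ratio was 1.47 (1.31 to 1.63) and 1.69 (1.35 to 2.11), both above the ratio of the class. The Fezf2 ratio was 1.67 (1.38 to 2.02) and 1.33 (1.11 to 1.61).

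In RG-like cells 2 of 9 members were past 1.5, both lower in Smo-cKO, beside 12% of 10171 genes (6.09% higher, 5.88% lower). Cux2 stood at 20.5 and 8.86 CPM (0.431, 0.306 to 0.603) and Tbr1 at 31.6 and 18.8 CPM (0.597, 0.466 to 0.761). Unnamed groups led by 1500015O10Rik, Olig1 and Tagln each held 15 RG markers as well. Their Cux2 ratios were 1.22 (0.744 to 2.00), 0.368 and 0.522, and their Tbr1 ratios 0.412, 0.700 and 0.569. Cycling progenitor-like cells gave the same 2 genes, with ratios of 0.542 (0.396 to 0.730) and 0.530 (0.423 to 0.659), beside 12.2% of 10838 genes (5.86% higher, 6.31% lower). The libraries filled that class from different groups: the one led by Hist1h2ae held 44.5% of its control and 25.3% of its Smo-cKO cells, and the one led by Cenpa, Pttg1 and Cdc25c 7.85% and 19.3%. Within the 4 groups the Tbr1 ratio was 0.539, 0.291, 0.414 and, in the Cenpa group, 1.44 (0.895 to 2.31), the opposite direction, and that of Cux2 was 0.381 to 0.748. Both are neuronal genes, and the summed 19 PyN markers were also lower in Smo-cKO, at 0.797 times control in RG-like, 0.751 in cycling progenitor-like and 0.508 in microglia-like cells. Neurod6, 1 of these 19 markers, fell more than the sum, from 157 to 92.8 CPM in RG-like and from 94.4 to 19.6 CPM in microglia-like cells. Their part in the Cux2 and Tbr1 values was not tested. Without the 8% of cells of each library with the highest Scrublet score, a measure of doublets, the Tbr1 ratio in RG-like cells was 0.146. This was the lowest of all settings and has no interval. It left 784 of 975 control and 723 of 841 Smo-cKO RG-like cells, and doublet calling did not work in Smo-cKO. In interneuron-like cells, where Tbr1 gave 50 UMIs in control and 5 in Smo-cKO, the difference went the same way. There the summed 19 PyN markers, some of them shared by all neurons, were alike, at 4373 and 4450 CPM. Neurod6 stood at 301 and 53.4 CPM.

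Fezf2 and Rorb did not pass 1.5-fold in either progenitor class. Fezf2 had a ratio of 1.31 (1.13 to 1.53) in RG-like and 1.39 (1.23 to 1.57) in cycling progenitor-like cells, and Rorb 1.18 (1.07 to 1.303) and 1.44 (1.32 to 1.59). The unnamed groups led by 1500015O10Rik, Olig1 and Tagln did not all go this way. Their Rorb ratios were 0.855 (0.743 to 0.983), 1.18 and 1.05. Their Fezf2 ratios were 1.301, 0.785 and 1.32, and the interval of the Fezf2 ratio in the Olig1 group included 1. In shares, Rorb was held by 42.6% of control and 55.4% of Smo-cKO RG-like cells and Fezf2 by 24.4% and 36.5%, but median depths were 4702 and 6940 UMIs, and at 2000 UMIs per cell the shares were 22.5% and 25.2% for Rorb and 10.5% and 13.02% for Fezf2. Pou3f2, Pou3f3 and Cux1 were at 0.852, 0.864 and 0.836 times control in RG-like cells.

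**Figure D5:**
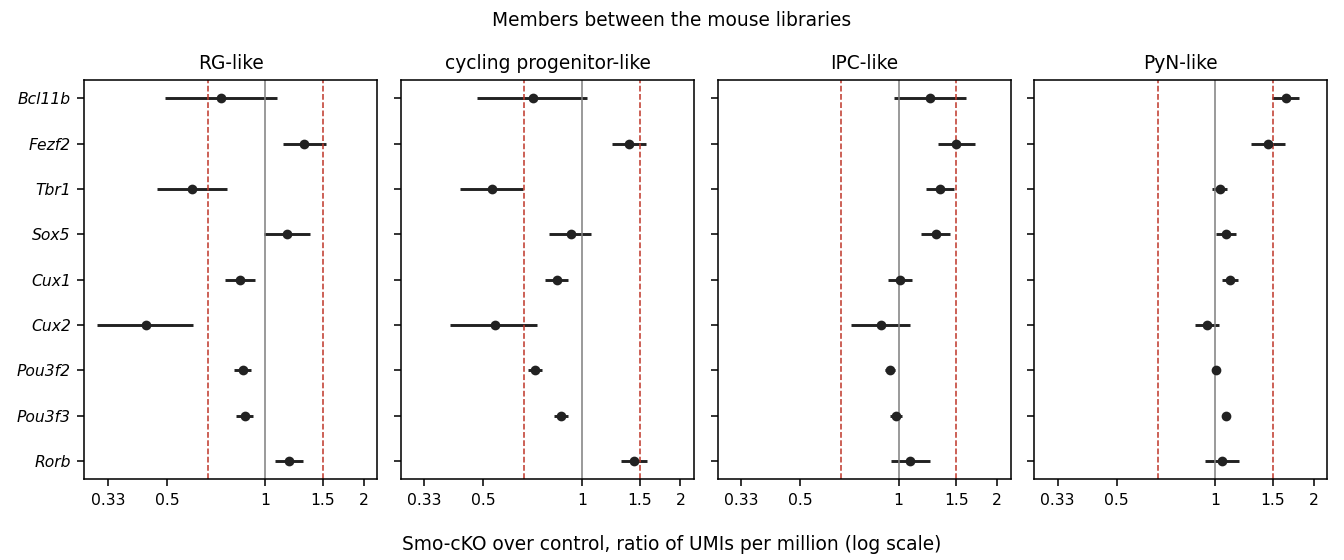
Ratio Smo-cKO over control of summed CPM on a log axis for the 9 genes in PyN-like, IPC-like, RG-like and cycling progenitor-like cells, with exact 95% intervals and lines at 1.5-fold either way. Bcl11b in PyN-like cells (1.64), Fezf2 in IPC-like cells (1.503) and Cux2 and Tbr1 in both progenitor classes (0.431 to 0.597) lie past the lines.

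Over each class the median log2 ratio of the 9 genes was 0.11 in PyN-like, 0.12 in IPC-like, -0.23 in RG-like and -0.26 in cycling progenitor-like cells, beside 0.05, 0.06, -0.01 and -0.03 over all genes tested. Of 21 other layer-linked regulators, 20 were measured well enough in PyN-like cells, of which Etv1, a layer 5 gene, was higher (1.61, 1.10 to 2.39) and Mef2c (0.398, 0.365 to 0.434) and Tshz3 (0.556, 0.408 to 0.752) were lower. In IPC-like cells 3 of 17 were higher (Etv1 3.68, Zfpm2 1.92, Id2 1.64) and 0 lower. The Zfpm2 ratio rests on 30 and 44 UMIs (1.18 to 3.16). In RG-like cells Ldb2 was higher (1.82) and Mef2c lower (0.324) of 19, and in cycling progenitor-like cells 0 of 21 were higher, and Bcl11a (0.587) and Mef2c (0.557) were among those that were lower. Past 1.5-fold either way lay 15% of these regulators in PyN-like, 17.6% in IPC-like, 10.5% in RG-like and 14.3% in cycling progenitor-like cells. The shares of all genes tested were 5.77%, 8.14%, 12% and 12.2%, and the regulator shares rest on only 17 to 21 genes.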

How the data were processed

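Each species' table holds UMI counts per gene and cell, deposited by the authors as whole numbers with no normalization. The submitters' notes list Cell Ranger, StringTie, Seurat 3 and mm10; the ferret build and whether counting used strand were not given in the sources used here. Barcode suffixes, not sample names, separate the libraries: the mouse suffix with more cells (10524 barcodes) was taken as control and the other (7596) as Smo-cKO, from the cell numbers given by the study, and every direction rests on this. No column of per-sample values was left unused.

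Cells with 750 to 5000 genes and under 10% mitochondrial UMIs were kept. They were normalized, integrated over libraries (2000 variable genes without the members and layer lists, 30 dimensions) and clustered at resolution 0.8 with Seurat 5.3.0 (R 4.3.3). Clusters were named where at least 3 markers of a class were high. The naming thresholds, the members and the lists were chosen with earlier results of these data known. The other genes named were the most alike by correlation and listed regulators past 1.5-fold; some genes that meet this rule are not reported here. Scrublet (scanpy 1.11.5) marked 8.38% of control cells and 0.0263%, 0% and 0.0602% of Smo-cKO, set 1 and set 2 cells, so doublet calling did not work in these 3 and no cell was removed by it. CPM is summed UMIs of a gene scaled to 1000000 UMIs of the class. Shares have Clopper-Pearson, levels Poisson and ratios conditional binomial intervals (scipy 1.17.1); floors are 3 counts. Genes with at least 50 UMIs over both libraries were tested against a fold of 1.5. Computations were tested on simulated data.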

Additional observations from a re-analysis of the deposited data

Results flagged for a closer look

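Tbr1 was set apart because its genotype ratio went opposite ways in different classes of the same libraries. It was 1.34 (1.21 to 1.47) in IPC-like cells, and 0.597 (0.466 to 0.761) in RG-like and 0.530 (0.423 to 0.659) in cycling progenitor-like cells, of which the group led by Cenpa stood at 1.44 (0.895 to 2.31). Within the IPC-like groups led by Kif26b and by Neurog2 it was 1.47 (1.31 to 1.63) and 1.69 (1.35 to 2.11). With 1 library per genotype the difference was not tested. Without the 8% of cells of each library with the highest Scrublet score the RG-like ratio was 0.146, the lowest of all settings and given without an interval. That setting left 784 control and 723 Smo-cKO RG-like cells and rests on a score whose calls did not work in Smo-cKO.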

How the results depend on the processing

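There was 1 library per genotype, so leaving out a replicate was not possible. No paired analysis was possible because no result comes from a test and each genotype has 1 sample. No member ratio past 1.5-fold changed direction. The median share of PyN-like cells with a UMI over the 9 members was 30.1% in control, 36.2% in Smo-cKO and 24.0% in ferret. It was 8.54%, 12.2% and 10.96% at 2 or more UMIs, 19.4%, 21.1% and 16.7% at 2000 UMIs per cell, and 23.7%, 25.7% and 20.7% with cells gated one by one (384, 187 and 1777 cells). In the ferret it was 22.1% in set 1, 26.6% in set 2, 25.7% with at least 1000 genes and under 5% mitochondrial UMIs, and 22.6% without the 5% of cells with the most UMIs. The count of members past 1.5-fold in PyN-like cells was 1, and 0 with gated cells or, chosen after seeing the data, without the Stmn2 and Mef2c group. In IPC-like cells it was 1, and 0 at 2000 UMIs, with median scaling, at resolution 0.4, with every deposited cell, under the stricter filter and without the 8% highest Scrublet scores, and 2 without integration. In RG-like cells it was 2 under each of the 10 alternatives run. In control pairs 0 lay past either limit, with 1 low at 2000 UMIs, 1 high without depth strata and at resolution 0.4, and 2 high and 3 low in gated cells. In ferret pairs 1 lay high and 4 low, with 5 low at 2000 UMIs, 6 low in set 1, 4 high without depth strata, 0 high and 1 low within groups, 2 high in set 2 or without the 5% of cells with the most UMIs, and 6 high and 8 low in gated cells. Over all settings Bcl11b in PyN-like cells ranged from 1.48 to 1.71, Fezf2 in IPC-like cells from 1.44 to 1.68, Cux2 in RG-like cells from 0.396 to 0.613 and Tbr1 in RG-like cells from 0.146 to 0.601. The share of all genes past 1.5-fold in PyN-like cells was 5.77%, 12.1% from 10 UMIs and 25.2% with no filter. Depth limits the shares of lowly counted genes such as Bcl11b and Fezf2, and pairs of them rest on few cells in progenitors.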
